A study of Mus musculus with 12 samples.

Results

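A group of 10 genes of the MLL chromatin complex and of the elongation machinery that MLL fusions recruit was followed across the 12 libraries of a study of mouse leukemic cells. They are *Kmt2a*, *Men1*, *Psip1*, *Mllt3*, *Mllt1*, *Dot1l*, *Mllt10*, *Aff1*, *Aff4* and *Ell*. They were chosen by symbol and not by a cut on their values, though with earlier results of these data known. All 10 had a row among the 25263 symbols of the table. All 10 also passed the filter on low values, a mean of at least 1 FPKM (fragments scaled to transcript length and to the library), which 13169 symbols passed.

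The study asked what deletion of the Hoxa cluster does to adult bone marrow leukemic cells that carry MLL-AF9 (MA9), the fusion of MLL with AF9. All 4 groups carried the fusion, were kept overnight in SCF, GM-CSF, IL-6 and IL-3, and were infected with a retrovirus and sorted for high GFP, with 3 libraries a group. WT-GFP cells had a wild type Hoxa cluster and received the control virus, and WT-Cre cells had the same cluster and received Cre recombinase. Hoxa-flox cells had a floxed cluster and received the control virus, and Hoxa-del cells were floxed cells that received Cre. The strain label was C57BL/6 for the WT groups and C57BL/6J for the floxed groups, so genotype, leukemia and strain label differ together and cannot be told apart. Whether the 3 libraries of a group stem from different animals or cultures is not labelled, and the p-values cover only how these libraries vary, which may be technical.

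MLL, encoded by *Kmt2a*, is a histone H3 lysine 4 methyltransferase that is held on chromatin by menin (*Men1*) and by LEDGF (*Psip1*). In leukemic fusions its N-terminal part is joined to a partner such as AF9, and the most frequent partners belong to the machinery that releases RNA polymerase II from pausing. AF9 (*Mllt3*) and its paralog ENL (*Mllt1*) read acylated histones through a YEATS domain, and bind either DOT1L, the histone H3 lysine 79 methyltransferase, or the AF4 family scaffolds of the super elongation complex (*Aff1*, *Aff4*), which also holds the elongation factor ELL. MLL and AF9, the products of *Kmt2a* and *Mllt3*, are the proteins joined in the fusion. The labels do not say whether the fusion is of human or mouse sequence, or whether the WT and floxed cells carry the same construct. The *Kmt2a* and *Mllt3* rows may hold reads of the fusion transcript beside those of the endogenous genes, and the table does not separate the 2 sources.

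*Hoxa9*, a gene of the targeted cluster, read 217 to 257 FPKM in Hoxa-flox and 83.5 to 119 in Hoxa-del, against 152 to 183 in the WT libraries. It was thus lower in Hoxa-del than in every other library but not at 0, and how complete the deletion was in these cells was not tested. The summed level of 8 myeloid markers lay between 2995 and 5945 FPKM in every library, a sum carried by the granule protease genes *Elane*, *Prtn3* and *Ctsg*, while other markers of the list stood far apart. *Mpo*, the myeloperoxidase gene, read 269 to 326 FPKM in WT-GFP and 180 to 195 in WT-Cre, but 3.80 to 31.1 in Hoxa-flox and 12.5 to 407 in Hoxa-del. *Csf3r*, the G-CSF receptor gene, read 96.9 to 120 FPKM in the WT libraries and 13.8 to 30.0 in the floxed ones, and *Kit*, the SCF receptor gene, 3.81 to 5.44 and 24.5 to 38.4. The erythroid markers with a row summed to at most 1.504 FPKM and the T cell markers to at most 0.417. Macrophage markers summed to 173 to 211 FPKM in the WT libraries and 29.4 to 99.95 in the floxed ones. The complement genes *C1qa*, *C1qb* and *C1qc* read at most 0.461 in the floxed libraries, whose sum was carried by *Adgre1*, another marker of the list. *Adgre1* read 97.1, 99.4 and 42.9 FPKM in Hoxa-flox and 29.2, 95.3 and 34.3 in Hoxa-del, against 41.1 to 48.2 in the WT libraries. The list thus did not go 1 way. B cell markers summed to at most 2.73 FPKM and stromal markers to at most 5.40. The part of any of these cells in the results was not tested. In bulk RNA, fewer cells of a type and less RNA per cell cannot be told apart. The depth of a library, estimated from the steps of its low values, lay between 3.9 M and 18.6 M fragments. In Hoxa-del 2 it was 6.4 M, the lowest of the floxed libraries, and the deposited values of that library summed to 1211907 FPKM. In every other library that sum lay between 548383 and 863199. The upper quartile over all rows was 9.43 FPKM in Hoxa-del 2 and 9.38 to 9.91 elsewhere. What this means for the levels in Hoxa-del 2 was not tested.

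The 6 libraries of floxed cells fell into 2 sets that did not match the groups. Hoxa-del 2, Hoxa-flox 1 and Hoxa-flox 2 lay on one side of their first principal component (64.4% of their variance), and Hoxa-flox 3, Hoxa-del 1 and Hoxa-del 3 on the other. *Mki67*, the proliferation marker Ki-67, read 14.9 to 17.8 FPKM in the first set and 84.6 to 93.2 in the second, so they are called the low-Mki67 and high-Mki67 libraries below. The sets were read from these values and have no label. The WT libraries read 65.1 to 78.2 FPKM of *Mki67*.

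**Figure D1:**
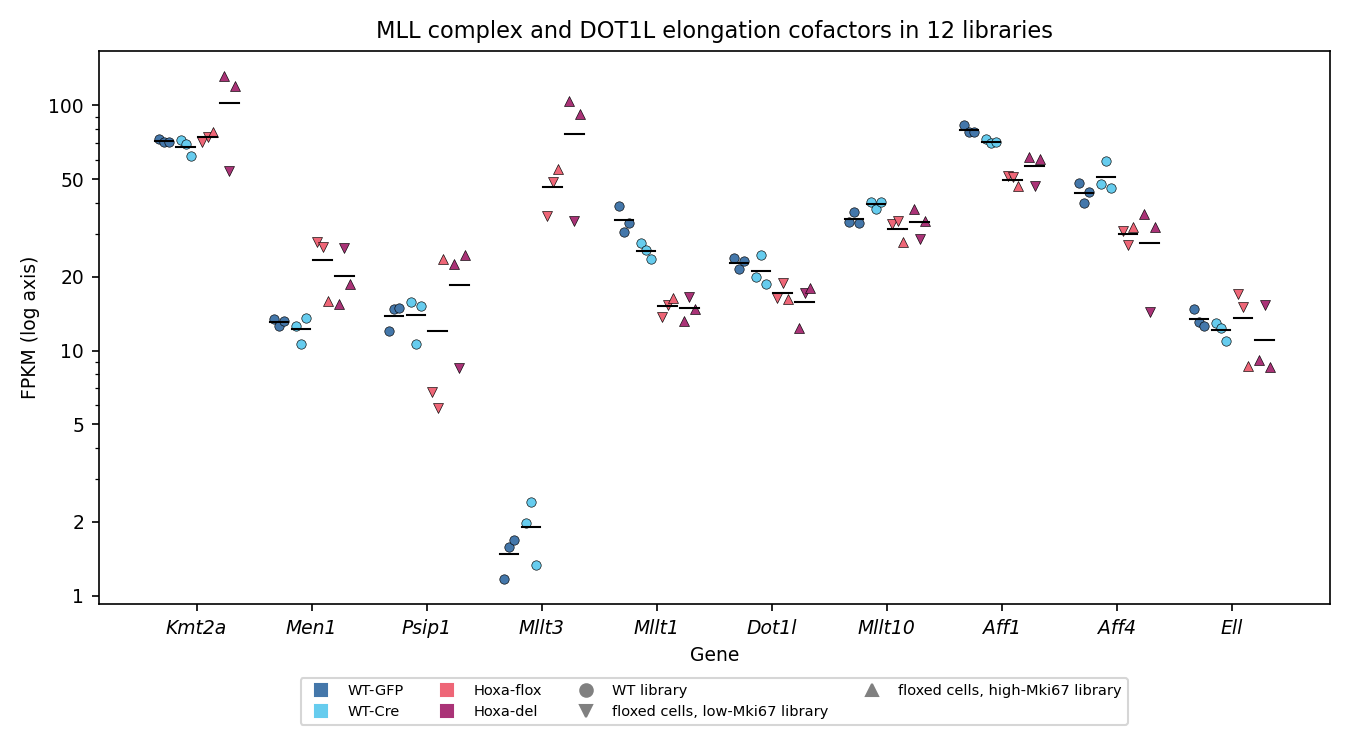
FPKM of the 10 genes on a log scale; points are single libraries, bars their group means, and triangles point down for low-Mki67 and up for high-Mki67 libraries of floxed cells. *Mllt3* lies between 1.17 and 2.42 FPKM in the WT libraries and between 33.9 and 104 in the floxed ones.

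Between the 2 leukemias before Cre, the AF9 gene differed far more than any other of the 10. *Mllt3* read 1.17, 1.57 and 1.69 FPKM in the WT-GFP libraries and 35.4, 48.8 and 55.2 in the Hoxa-flox libraries. The groups did not overlap, and the mean was 31.5 times higher in Hoxa-flox (1.48 ± 0.272 against 46.5 ± 10.1, SD, n = 3). On the scale of log2(FPKM + 1), which is used for all changes here, *Mllt3* was higher by 4.24 (SE 0.36, adjusted p = 7.59e-06, limma with Benjamini-Hochberg adjustment), the change of rank 23 from the top among 13169 tested symbols. With Cre it read 1.98, 2.42 and 1.33 FPKM in WT-Cre and 104, 33.9 and 92.1 in Hoxa-del, a difference of 4.61 (SE 0.36, adjusted p = 3.91e-06, limma). All 6 floxed libraries thus lay above all 6 WT libraries, in a row whose share of fusion reads is not known. Its locus on chromosome 4 (GRCm38, 87769925 to 88033364, minus strand) overlaps 0 other genes of the GENCODE M21 annotation.

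The paralog *Mllt1* went the other way. This ENL gene read 39.0, 30.3 and 33.1 FPKM in WT-GFP and 13.8, 15.4 and 16.3 in Hoxa-flox, groups that did not overlap. It was lower in Hoxa-flox, with a log2 change of -1.12 (SE 0.14, adjusted p = 0.000124, limma). Under Cre, *Mllt1* averaged 25.6 ± 1.85 FPKM in WT-Cre and 14.9 ± 1.63 in Hoxa-del (log2 change -0.75, SE 0.14, adjusted p = 0.00196, limma). FPKM is scaled to transcript length, and the 2 rows are set side by side on that scale. The *Mllt3* row may hold fusion reads, so its share and the sum may mix fusion and endogenous RNA. How the length scaling treats such reads was not tested. *Mllt3* made up 2.91% to 8.62% of the summed FPKM of *Mllt3* and *Mllt1* in the WT libraries and 67.3% to 88.7% in the floxed libraries. The share was 4.23% ± 1.15 in WT-GFP and 75.1% ± 2.70 in Hoxa-flox (SD, n = 3, exact two-sided permutation p = 0.1, the smallest that 3 against 3 allows). The sum itself came to 35.6 ± 4.20 FPKM (WT-GFP) and 61.6 ± 11.4 (Hoxa-flox, exact permutation p = 0.1).

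The sequences before the start sites of the 2 paralogs are shown because these 2 genes differed in opposite directions between the leukemias, and because the CXXC domain of MLL binds unmethylated CG dinucleotides. Each run is the 250 bases before a start site, 5′ to 3′ on the gene's strand, from RefSeq on GRCm38.p6, with CG in capitals. *Mllt3* has 2 entries, the upstream start and a start inside the locus, and the table does not tell which start a fragment came from.
Mllt3 upstream start, chr4:88033408-88033657, minus strand: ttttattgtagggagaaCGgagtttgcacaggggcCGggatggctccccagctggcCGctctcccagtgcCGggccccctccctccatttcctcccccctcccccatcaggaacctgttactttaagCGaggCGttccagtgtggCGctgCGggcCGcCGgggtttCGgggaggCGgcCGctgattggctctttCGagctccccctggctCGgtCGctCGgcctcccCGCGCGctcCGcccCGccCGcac
Mllt3 internal start, chr4:87806324-87806573, minus strand: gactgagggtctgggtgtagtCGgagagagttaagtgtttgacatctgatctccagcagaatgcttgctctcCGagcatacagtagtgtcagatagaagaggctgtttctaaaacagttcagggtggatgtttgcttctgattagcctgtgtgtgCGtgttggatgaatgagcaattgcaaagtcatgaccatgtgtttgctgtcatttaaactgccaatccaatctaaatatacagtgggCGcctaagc
Mllt1 start, chr17:56935389-56935638, minus strand: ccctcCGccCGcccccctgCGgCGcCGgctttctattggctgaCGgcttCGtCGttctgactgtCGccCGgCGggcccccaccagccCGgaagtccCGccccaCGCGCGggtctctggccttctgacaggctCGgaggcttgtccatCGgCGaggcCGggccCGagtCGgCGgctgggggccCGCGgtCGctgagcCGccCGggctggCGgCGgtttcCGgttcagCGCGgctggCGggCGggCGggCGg

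The upstream window of *Mllt3* holds 23 CG and the *Mllt1* window 37, counts that 13.3% and 2.2% of the 32851 RefSeq windows reach. The internal *Mllt3* window holds 4, which 62.2% of windows reach. Over all windows the median was 6 CG, and over the 15 entries of the 9 members with one it was 23. A composite HOX and PBX motif, TGATNNAT on either strand, was found in 0 of the 15 entries and in 7.7% of all windows. These are descriptions of the letters only.

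Of MLL and its chromatin anchors, *Kmt2a* did not pass between the leukemias under the control virus. It stood at 72.8, 70.8 and 70.8 FPKM in WT-GFP and 71.2, 74.5 and 77.7 in Hoxa-flox, groups that overlap (log2 change 0.06, 95% interval -0.53 to 0.64, adjusted p = 0.900, limma). The *Kmt2a* locus lies on chromosome 9 (44803355 to 44881296, minus strand) and overlaps 2 other annotated genes, 1 of them on the same strand, none protein-coding. Of the other members, *Mllt10* and *Aff4* overlap 2 genes each on their own strand, and whether such genes add reads to a row was not tested. The menin gene, by contrast, read higher in the floxed cells. *Men1* read 13.5, 12.6 and 13.2 FPKM in WT-GFP and 27.8, 26.5 and 15.9 in Hoxa-flox, without overlap, and the third Hoxa-flox library, the only high-Mki67 one of that group, lay closest to WT. The log2 change of *Men1* was 0.75 (SE 0.22, adjusted p = 0.0295, limma). The call was lost without any 1 of WT-GFP 1, WT-GFP 2, WT-GFP 3, Hoxa-flox 1 or Hoxa-flox 2 (adjusted p = 0.0695 to 0.110), and without Hoxa-flox 3 the change was 0.996 (adjusted p = 0.00326, limma). With Cre, *Men1* averaged 12.3 ± 1.502 FPKM in WT-Cre and 20.1 ± 5.48 in Hoxa-del and missed the threshold (log2 change 0.64, adjusted p = 0.0560, limma). It passed there with upper-quartile rescaling (adjusted p = 0.0370, limma) and without Hoxa-del 1 (log2 change 0.805, adjusted p = 0.02905, limma).

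The gene of LEDGF, which tethers menin and MLL to transcribed chromatin, varied more among the Hoxa-flox libraries (SD 10.0 FPKM) than among the WT-GFP ones (SD 1.64). *Psip1* read 11.99, 14.8 and 14.9 FPKM in WT-GFP but 6.75, 5.81 and 23.6 in Hoxa-flox. The Hoxa-flox libraries lay on both sides of the WT level, and *Psip1* did not pass (log2 change -0.44, 95% interval -1.49 to 0.60, adjusted p = 0.542, limma).

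The H3K79 methyltransferase and its cofactor AF10 (*Mllt10*) did not pass between the leukemias. *Dot1l* read 23.8, 21.5 and 23.1 FPKM in WT-GFP and 16.4, 18.8 and 16.2 in Hoxa-flox. Every Hoxa-flox library lay below every WT-GFP library, yet *Dot1l* did not pass (a log2 change of -0.40, SE 0.16, adjusted p = 0.0872, limma). When limma was fitted to these 2 groups alone, *Dot1l* passed (adjusted p = 0.0421). *Dot1l* was at 12.4, 17.1 and 18.0 FPKM in Hoxa-del and at 19.9, 24.4 and 18.7 in WT-Cre, again without overlap (log2 change -0.40, adjusted p = 0.0863, limma). *Mllt10* stood at 34.5 ± 2.08 FPKM in the WT-GFP and 31.4 ± 3.22 in the Hoxa-flox libraries (log2 change -0.14, adjusted p = 0.493, limma).

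Of the scaffolds of the super elongation complex, *Aff1* was lower in Hoxa-flox. This AF4 gene read 83.6, 77.8 and 77.9 FPKM in WT-GFP and 51.5, 50.9 and 47.0 in Hoxa-flox. The groups did not overlap, and the log2 change of *Aff1* was -0.67 (SE 0.13, adjusted p = 0.00244, limma). *Aff4* read 48.1, 39.9 and 44.2 FPKM in WT-GFP and 30.8, 27.0 and 31.8 in Hoxa-flox, also without overlap, but did not pass (log2 change -0.55, SE 0.27, adjusted p = 0.168, limma). When limma was fitted to these 2 groups alone, *Aff4* passed (adjusted p = 0.0182). Under Cre the scaffold past the threshold was *Aff4*, which read 47.9, 59.1 and 46.1 FPKM in WT-Cre and 36.2, 14.4 and 31.9 in Hoxa-del (log2 change -0.96, SE 0.27, adjusted p = 0.0233, limma). Hoxa-del 2 was by far the lowest of these 6 libraries. Without it the change of *Aff4* was -0.56, and leaving out WT-Cre 1 or WT-Cre 2, or fitting the 2 groups alone, ended the call (adjusted p = 0.0539, 0.0860 and 0.0930). *Aff1* averaged 71.3 ± 1.25 FPKM in WT-Cre and 56.4 ± 8.20 in Hoxa-del, without overlap, and missed the threshold (log2 change -0.34, adjusted p = 0.0653, limma). *Aff1* has 4 rows, and with the rows of each symbol summed it passed there (log2 change -0.393, adjusted p = 0.0295, limma), as it did without Hoxa-del 1 (-0.413, adjusted p = 0.0376, limma). *Ell* had means of 13.5 ± 1.20 FPKM (WT-GFP) and 13.6 ± 4.39 (Hoxa-flox) and did not pass (log2 change -0.03, 95% interval -0.58 to 0.52, adjusted p = 0.941, limma).

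Before Cre, then, 4 of the 10 genes passed, 2 higher (*Mllt3*, *Men1*) and 2 lower (*Mllt1*, *Aff1*) in Hoxa-flox. Of all tested symbols 26.8% passed in that comparison, 13.3% higher and 13.5% lower, beside 40.0% of the members. For 6 of the 10 the libraries did not overlap, against 47.2% of all tested symbols. The median log2 change of the 10 was -0.27, beside 0.00 over all tested symbols. With Cre in both leukemias 3 of the 10 passed, 1 higher and 2 lower, where 27.2% of all symbols did, 13.0% higher and 14.2% lower. There 7 of the 10 did not overlap, against 41.3% of all symbols. The 2 comparisons use different libraries of the same 2 leukemias.

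**Figure D2:**
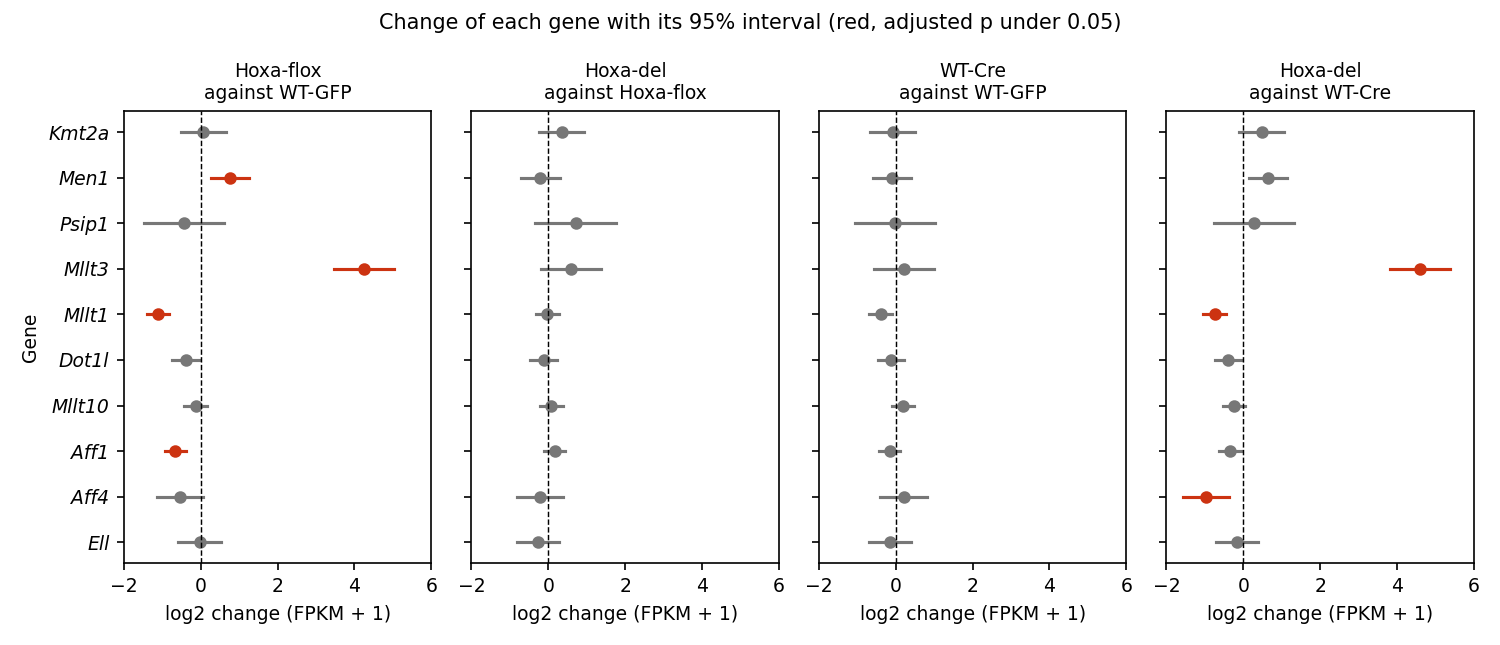
Change of each gene on the scale of log2(FPKM + 1) in 4 comparisons, with points for the estimate, bars for its 95% interval and red for adjusted p under 0.05. *Mllt3* stands at 4.24 and 4.61 between the leukemias, and all 10 intervals for Hoxa-del against Hoxa-flox include 0.

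Comparing Hoxa-del with Hoxa-flox, 0 of the 10 passed (limma), and 0 had an unadjusted p under 0.05. These are Hoxa-del libraries in which *Hoxa9* still read 83.5 to 119 FPKM, so the comparison is with reduced and not with absent *Hoxa9* RNA. Of all symbols 0.0304% passed. The groups overlapped for all 10 genes, while 6.39% of all tested symbols did not overlap. The median log2 change of the 10 was 0.03, beside -0.06 over all tested symbols. The intervals do not exclude sizeable changes for several members. *Mllt3* was higher by 0.58 (95% interval -0.20 to 1.37, adjusted p = 0.739, limma), *Psip1* by 0.71 (-0.34 to 1.76) and *Kmt2a* by 0.35 (-0.24 to 0.93). They were narrower for *Mllt1* (-0.33 to 0.27), *Mllt10* (-0.21 to 0.37), *Aff1* (-0.11 to 0.44) and *Dot1l* (-0.46 to 0.23).

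The rows of the 2 fusion partners were high and low in the same Hoxa-del libraries. *Kmt2a* read 132, 53.8 and 120 FPKM in Hoxa-del 1, 2 and 3. *Mllt3* read 104, 33.9 and 92.1 in the same libraries. In both rows Hoxa-del 1 and 3 lay above every Hoxa-flox library and Hoxa-del 2 below every one. Hoxa-del 2 was also the library with the highest summed FPKM (1211907), and the part of this in its low levels was not tested. Without Hoxa-del 2 both genes passed against Hoxa-flox, *Kmt2a* with a log2 change of 0.75 (SE 0.11, adjusted p = 0.0336, limma) and *Mllt3* with 1.08 (SE 0.22, adjusted p = 0.0430, limma), among 787 symbols called there. That comparison sets 2 high-Mki67 libraries against a group with 2 low-Mki67 ones. When the fit of all libraries also held a term for the set, the changes were 0.13 for *Kmt2a* and 0.27 for *Mllt3*, given with no p because the sets were read from these values. Within the sets they went opposite ways. For *Kmt2a* the difference was -0.43 among low-Mki67 libraries (1 Hoxa-del against 2 Hoxa-flox) and 0.69 among high-Mki67 libraries (2 against 1), and for *Mllt3* it was -0.29 and 0.82, values with no test. The ratio of the *Mllt3* row to the *Kmt2a* row was 0.498, 0.655 and 0.711 in Hoxa-flox and 0.790, 0.630 and 0.767 in Hoxa-del (exact permutation p = 0.3), against 0.0161 to 0.0348 in the WT libraries. Without Hoxa-del 2, *Kmt2a* was also higher than in WT-Cre (log2 change 0.88, adjusted p = 0.000201, limma), a comparison it did not pass with all libraries (0.48, adjusted p = 0.214, limma).

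**Figure D3:**
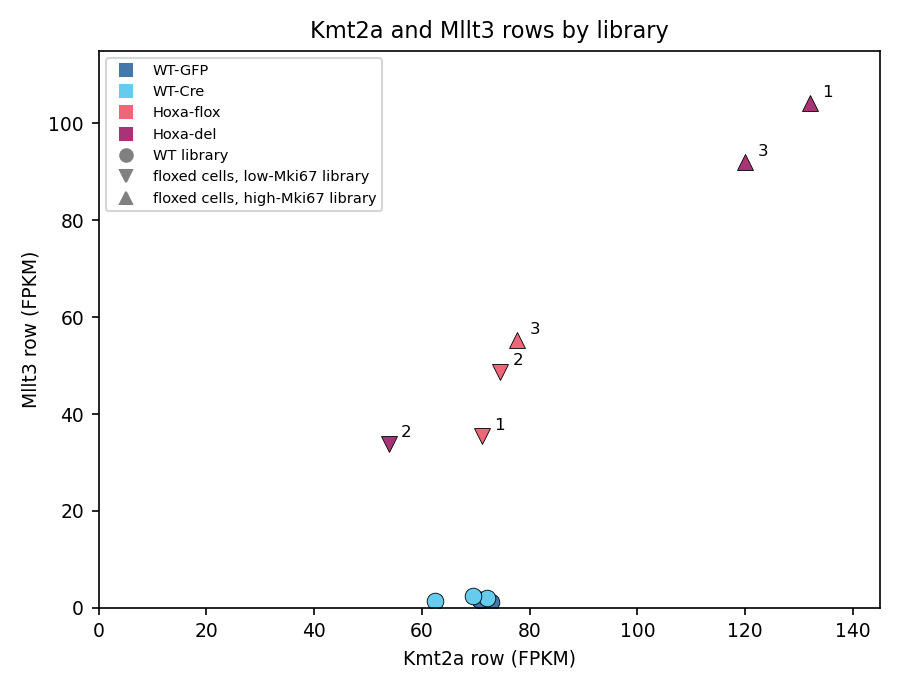
FPKM of the *Mllt3* row against the *Kmt2a* row, 1 point per library; color gives the group, shape the library set and numbers the replicates of the floxed cells. The WT libraries lie at or below 2.42 FPKM of *Mllt3* at *Kmt2a* levels of 62.5 to 72.8, and the floxed libraries run from 53.8 and 33.9 (Hoxa-del 2) to 132 and 104 (Hoxa-del 1).

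Among the floxed libraries 6 of the 10 genes did not overlap between the Mki67 sets, while 0 did not overlap between Hoxa-del and Hoxa-flox. Over all tested symbols 54.8% did not overlap between the sets. *Psip1* read 6.75, 5.81 and 8.47 FPKM in the low-Mki67 libraries and 23.6, 22.5 and 24.6 in the high-Mki67 ones, a ratio of means of 3.36. The second, lower row of *Psip1* read 0.345 to 0.517 and 1.70 to 2.66 FPKM. *Men1* read 27.8, 26.5 and 26.1 FPKM in the low-Mki67 libraries and 15.9, 15.5 and 18.7 in the others. *Ell*, an elongation factor that raises the rate of RNA polymerase II, read 17.1, 15.1 and 15.3 FPKM and then 8.68, 9.12 and 8.59. On the log2 scale the high-Mki67 libraries differed from the others by 1.63 for *Psip1*, -0.66 for *Men1* and -0.78 for *Ell*. Hoxa-del differed from Hoxa-flox within the low-Mki67 and high-Mki67 sets by 0.38 and -0.01 for *Psip1*, by -0.05 and 0.09 for *Men1*, and by -0.06 and 0.03 for *Ell*. *Kmt2a*, *Mllt3* and *Aff4* were higher in every high-Mki67 library too, with ratios of means of 1.65, 2.13 and 1.39. *Mllt1*, *Dot1l*, *Mllt10* and *Aff1* overlapped between the sets. No test is given, since the sets were read from these values.

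**Figure D4:**
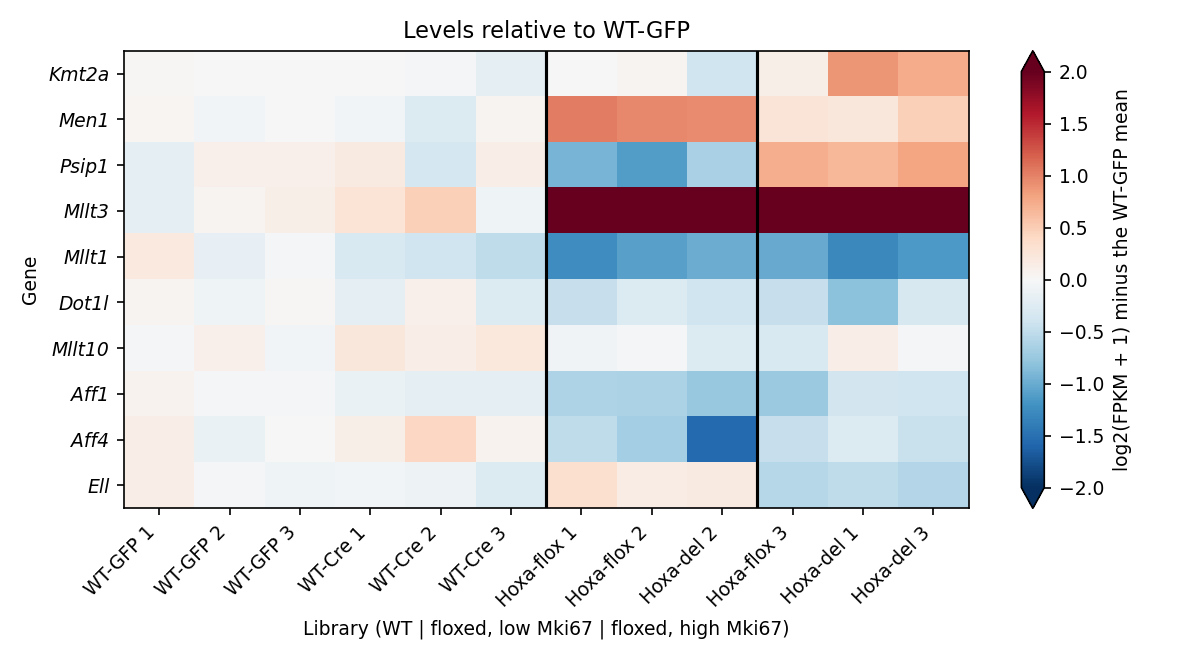
Level of each gene in each library as log2(FPKM + 1) minus the WT-GFP mean; the color scale ends at -2 and 2, beyond which *Mllt3* lies in all 6 floxed libraries. Columns are ordered as WT, low-Mki67 and high-Mki67 libraries of floxed cells, and *Psip1* lies below 0 in the low-Mki67 and above 0 in the high-Mki67 libraries.

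Cre in WT cells, where no cluster was floxed, was tested in the same way. Comparing WT-Cre with WT-GFP, 0 of the 10 passed (limma), with 1 at an unadjusted p under 0.05, and 0.0152% of all symbols passed. That gene was *Mllt1*, at 39.0, 30.3 and 33.1 FPKM with the control virus and 27.4, 25.6 and 23.7 after Cre (a change of -0.40, SE 0.14, adjusted p = 1.0, limma). Its groups did not overlap, nor did those of *Aff1* (79.8 ± 3.32 and 71.3 ± 1.25 FPKM) and *Mllt10* (34.5 ± 2.08 and 39.5 ± 1.40 FPKM), where 25.7% of all symbols did not. *Kmt2a* averaged 71.5 ± 1.13 and 68.0 ± 4.93 FPKM. The change with Cre did not differ between the genotypes in a way that passed for any of the 10 (interaction, limma, adjusted p = 1.0 for each, 0 at an unadjusted p under 0.05, with 0.00759% of all symbols past the threshold). The differences of change lay between -0.41 for *Aff4* (95% interval -1.26 to 0.44) and 0.72 for *Psip1* (-0.76 to 2.199).

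The order of the levels also differed between the leukemias. In WT-GFP *Aff1* (79.8 FPKM) stood above *Kmt2a* (71.5), *Aff4* (44.1), *Mllt10* (34.5), *Mllt1* (34.1) and *Dot1l* (22.8), followed by *Psip1* (13.9), *Ell* (13.5), *Men1* (13.1) and, lowest, *Mllt3* (1.48). Neighbours overlapped there for *Mllt10* and *Mllt1*, and among *Psip1*, *Ell* and *Men1*. WT-Cre kept *Mllt3* last, and *Aff1* and *Kmt2a* overlapped. In Hoxa-flox *Kmt2a* came first (74.4 FPKM), and *Aff1* (49.8) and *Mllt3* (46.5) overlapped with each other. From *Mllt10* (31.4 FPKM) down to *Psip1* (12.1) each gene overlapped with the next. In Hoxa-del *Kmt2a* (102 FPKM), *Mllt3* (76.7) and *Aff1* (56.4) led, each overlapping with the next, and *Ell* (11.0) was last.

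Another 62 genes of the same or related pathways were taken as lists. Among them were the H3K4 methyltransferase complexes, the super elongation complex with P-TEFb, and the PAF1 complex with H2B ubiquitin ligases. A mixed list held acetyl readers and acetyltransferase partners beside *Mllt6*, *Hdgfrp2* and *Jund*, and the last list was named H3K4 demethylases. Of the 62 genes, 60 had a row and 57 were tested. In Hoxa-del against Hoxa-flox, in WT-Cre against WT-GFP and in the interaction 0 of the 57 passed (limma). Between the leukemias 5 were higher and 6 lower in Hoxa-flox than in WT-GFP, and 7 higher and 4 lower in Hoxa-del than in WT-Cre. That is 19.3% of the 57 in each comparison, beside 26.8% and 27.2% of all tested symbols.

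Among the methyltransferase complexes (16 tested, 2 higher and 3 lower, median log2 change -0.26) the MLL3 gene *Kmt2c* had means of 23.3 FPKM under WT-GFP and 11.9 under Hoxa-flox (log2 change -0.92, SE 0.17, adjusted p = 0.00196, limma), and the coactivator *Ncoa6* 32.8 and 20.9. *Setd1a*, a methyltransferase of another such complex, averaged 30.9 and 43.5 FPKM, and its partner *Wdr82* read 19.6 to 20.6 FPKM in the first group and 22.2 to 35.4 in the second. Of the super elongation complex and P-TEFb genes (16 tested, median 0.05), *Eaf1*, which binds ELL, was higher (18.3 and 28.1 FPKM, adjusted p = 0.00460, limma). The AF4 family row *Aff2* was lower (46.9 and 26.1 FPKM, adjusted p = 0.0408, limma). In the PAF1 list (10 tested, 0 higher and 1 lower, median 0.01) *Ctr9* averaged 25.5 and 18.9 FPKM. In the mixed list with acetyl readers and partners (10 tested, 0 higher and 1 lower, median 0.02) the YEATS gene *Yeats2* averaged 10.6 and 7.32 FPKM. The list named H3K4 demethylases (5 tested, 2 higher, median 0.36) had *Kdm2b* at 23.1 and 35.8 FPKM (adjusted p = 0.00975, limma). *Kdm1a*, the LSD1 gene, stood at 14.2 and 22.1 (adjusted p = 0.00400, limma). Which histone marks the products of this list act on was not tested. In the second comparison, of Hoxa-del with WT-Cre, *Kdm2b* (21.8 and 41.4 FPKM) and *Hdgfrp2*, a relative of LEDGF (17.1 and 24.1), were among the higher genes, as was the acetyltransferase gene *Kat7* (27.8 and 38.6). Of the 22 calls on these genes, *Kmt2c*, *Ncoa6*, *Eaf1*, *Yeats2*, *Kdm1a* and *Kdm2b* in Hoxa-flox and *Ncoa6* and *Kdm2b* in Hoxa-del held in all 12 alternatives, and each of the others was lost in at least 1. *Wdr82* and *Aff2* kept theirs in Hoxa-flox in 2 and 4 of the 12.

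By the Pearson correlation of log2(FPKM + 1) over the 12 libraries, the rows most like *Mllt3* among the 9072 symbols whose mean reached 5 FPKM were *Cdk17* (r = 0.994), *Tsc22d2* (0.993) and *Pde3b* (0.992). For *Kmt2a* they were *Xist* (0.929), *Iqgap2* (0.916) and *Chka* (0.911), and for *Dot1l* *Mpc1* (0.965), *Ccdc71l* (0.951) and *Foxo3* (0.932). The 12 points share libraries, leukemias and sets, so these values are a description.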

How the data were processed

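RNA of 12 samples was isolated with TRIzol and made into stranded, ribosomal RNA-depleted libraries sequenced on a NextSeq instrument, per the labels' protocols. The submitters' processing notes name the tools Cuffdiff 2.2.2.20150701, STAR and Cufflinks and the builds mm10 and GRCm38, without saying which did what. The deposited table has 28042 rows and 1 column per library. Its unit is not stated, and the deposited values were taken as FPKM, the unit Cufflinks gives. How libraries were scaled, and on which annotation, is not given in the sources used here. No count model suits FPKM, and none was used. The depth estimate comes from the steps of low FPKM values and from the lengths of genes with 1 transcript, and depth limits the precision of low values.

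Where a symbol had several rows, that of the highest mean stood for it, which touched *Aff1* (4 rows) and *Psip1* (2 rows). Whether rows hold merged loci was not tested. limma 3.58.1 (limma-trend, R 4.3.3) was fitted on log2(FPKM + 1), all 12 libraries and 4 groups together, to the 13169 symbols whose mean reached 1 FPKM. P-values were adjusted by Benjamini-Hochberg over these symbols, and 0.05 was the threshold. The pseudocount of 1 makes changes of low genes look smaller. The groups shared 1 estimate of the spread, although the median SD of a gene went from 0.116 (WT-GFP) to 0.357 (Hoxa-del). Ratios were compared with exact permutation tests (scipy 1.17.1). On simulated data for Hoxa-flox against WT-GFP (13169 genes), limma found 54% of 100 genes given a log2 change of 1. It found 89% of 100 given a log2 change of 2. Only these genes were changed there, while 26.8% of symbols passed in the data. Each simulated gene also had 1 spread in all groups, where the real median SD was 0.116 in WT-GFP and 0.290 in Hoxa-flox. The simulated shares are therefore not the power of the real comparison.

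The members, the lists, the tests and the library sets were chosen with earlier results of these data known. Named genes were all members, from each related list and comparison the 2 that rose most and the 2 that fell most among those that passed (fewer where fewer passed), and the 3 rows most like *Kmt2a*, *Mllt3* and *Dot1l*. Alternatives were a pseudocount of 0.1, no filter, upper-quartile rescaling, a fit restricted to the groups compared, a term for the replicate number, a term for the library set, itself read from these values (not between leukemias), the sum over rows of a symbol, and each library left out in turn. Coordinates are those of GENCODE M21 (GRCm38).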

Additional observations from a re-analysis of the deposited data

How the results depend on the processing

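Over the alternatives, 633 of 680 changes of the 10 genes kept their direction and their side of the threshold, 8 lost and 9 gained a call and 30 changed sign, none of these 30 from a call. *Mllt3* and *Mllt1* kept their calls between the leukemias in all 12 alternatives of each comparison, and *Aff1* in Hoxa-flox against WT-GFP did too. The number of the 10 past the threshold was 0 to 2 for Hoxa-del against Hoxa-flox with 1 library left out (2 without Hoxa-del 2) and 2 to 5 for Hoxa-del against WT-Cre (5 without Hoxa-del 1). No other setting moved such a number by over 1.5 times, among them the 4 and 6 genes in Hoxa-flox against WT-GFP with all groups and with only the groups compared. Depth limits the lowest member most, *Mllt3* in WT cells.

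These changes of sign were found: with a pseudocount of 0.1, *Dot1l* in the interaction (-0.001). With upper-quartile rescaling, *Mllt1* in Hoxa-del against Hoxa-flox (0.046) and *Psip1* in WT-Cre against WT-GFP (0.035). With the library set as a term, *Men1* in Hoxa-del against Hoxa-flox (0.018) and in the interaction (0.111), and *Ell* in the interaction (0.128). With summed rows, *Psip1* in WT-Cre against WT-GFP (0.021). With 1 library left out the ranges that cross 0 were -0.212 to 0.239 for *Ell* in Hoxa-flox against WT-GFP, -0.108 to 0.158 for *Psip1* in WT-Cre against WT-GFP, -0.355 to 0.053 for *Men1* in the interaction, -0.096 to 0.158 for *Dot1l* in the interaction, -0.402 to 0.049 for *Ell* in the interaction, -0.103 to 0.046 for *Mllt1* in Hoxa-del against Hoxa-flox, -0.215 to 0.039 for *Dot1l* in Hoxa-del against Hoxa-flox, -0.011 to 0.189 for *Mllt10* in Hoxa-del against Hoxa-flox and -0.453 to 0.184 for *Aff4* in Hoxa-del against Hoxa-flox. The causes were not tested.

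Same-numbered libraries did not all deviate together: 3 of 18 correlations were over 0.1 (-0.304 to 0.721), and 7 of 18 were highest with their own number. Between Hoxa-flox and Hoxa-del they were -0.301, 0.6 and 0.721 for numbers 1, 2 and 3. The libraries numbered 2 are both low-Mki67, those numbered 3 both high-Mki67, and those numbered 1 fall in different sets. With the replicate block the number of the 10 past the threshold was 4 for Hoxa-flox against WT-GFP, 3 for Hoxa-del against WT-Cre and 0 for the others, as without it, and over all symbols it was 0 rather than 2 in WT-Cre against WT-GFP.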
